A study of Drosophila melanogaster with 3 samples.

Results

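The genes described here encode 10 DNA-binding proteins and cofactors of Drosophila melanogaster insulators and promoters, Trl, Cp190, M1BP, CTCF, su(Hw), BEAF-32, Dref, mod(mdg4), Clamp and pita. They were chosen by name for the known roles of their proteins, out of 18164 annotated genes on the 6 chromosome arms, of which 13945 are protein-coding. Earlier results of these data were known when they were chosen. Peaks of CG2678, also called kipferl, were read in each gene and 5 kb to either side. CG2678 is a zinc finger protein known from the ovary, where it guides the heterochromatin protein Rhino to loci that give rise to piRNAs. Its binding was measured by chromatin immunoprecipitation sequencing (ChIP-seq) with an anti-GFP antibody in whole embryos, male and female together, aged 0 to 24 h, in 3 biological replicates that form the only group. Every replicate came from a transgenic fly line that stably expressed CG2678 with GFP fused to its C-terminus, and the embryos mix all tissues and stages of that day, so a peak cannot be placed in a cell type. Which promoter drove the fusion is not given in the sources used here.

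Insulators are DNA elements that limit contact between an enhancer and a promoter or between chromatin domains. In flies su(Hw), CTCF, pita and BEAF-32 bind DNA through zinc fingers and recruit cofactors, among them Cp190 and the BTB domain protein mod(mdg4), which has many isoforms made by trans-splicing. Trl encodes the GAGA factor, which binds GAGAG repeats and keeps promoters open, and Clamp binds similar GA-rich DNA and helps to bring the dosage compensation complex to the X chromosome. M1BP binds the core promoter element Motif 1, and Dref binds TATCGATA, the DNA replication-related element, at promoters of growth and housekeeping genes.

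Sequence around the summits that carry the results is shown first, so that the values can be read against it. Each run holds a summit in dm6 with 50 bases to either side, read 5′ to 3′ in the direction in which the gene is transcribed, from the RefSeq copy of the assembly. Capitals mark a match on either strand to one of 9 short words, GAGAG (bound by Trl and Clamp), GGTCACAC (M1BP), TATCGATA (Dref), CGATA (BEAF-32), GCATACTT (su(Hw)), AGGNGGC (CTCF), TATAAA (the TATA box), AAAAAA and GGGG. CGATA lies within TATCGATA. The first 5 are the strongest summit of Trl, the promoter summits of Cp190, M1BP and Dref, and the strong internal summit of mod(mdg4). The sixth, at su(Hw), was called in replicates 1 and 2 and not in the pooled data.
Trl (chr3L:14759469-14759569, minus strand): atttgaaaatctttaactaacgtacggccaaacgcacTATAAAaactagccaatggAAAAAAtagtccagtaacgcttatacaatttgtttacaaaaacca
Cp190 (chr3R:15275327-15275427, minus strand): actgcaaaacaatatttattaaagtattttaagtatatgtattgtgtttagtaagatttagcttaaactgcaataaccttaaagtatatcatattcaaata
M1BP (chr3R:8731860-8731960, minus strand): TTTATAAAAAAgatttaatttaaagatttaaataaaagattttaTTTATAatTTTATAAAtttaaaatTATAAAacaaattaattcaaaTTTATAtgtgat
Dref (chr2L:9967212-9967312, minus strand): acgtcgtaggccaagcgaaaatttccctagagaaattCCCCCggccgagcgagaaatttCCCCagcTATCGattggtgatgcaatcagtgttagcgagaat
mod(mdg4) (chr3R:21365392-21365492, minus strand): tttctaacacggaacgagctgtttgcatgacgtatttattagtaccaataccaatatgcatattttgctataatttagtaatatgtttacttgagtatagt
su(Hw) (chr3R:14308889-14308989, minus strand): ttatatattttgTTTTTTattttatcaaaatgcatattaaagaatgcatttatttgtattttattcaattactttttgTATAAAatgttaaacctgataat

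The M1BP run was nearly all A and T, with a GC content of 6.93%, and the runs of Cp190 (20.8%) and su(Hw) (14.9%) were also low. The Dref run differed, with a GC content of 49.5%. None of the 6 runs held GGTCACAC, the whole of TATCGATA, GCATACTT or AGGNGGC.

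The files used here were 3 replicate lists and a list called on the pooled replicates, each of 30000 peaks, and 9459 pooled peaks that passed the authors' threshold on the irreproducible discovery rate (IDR). The IDR peaks are the strongest pooled peaks, so they are not independent of the replicates. Ranks are by the authors' signal value within a list, with 1 the strongest. A summit was placed in a promoter when a transcription start site (TSS) of any gene lay within 500 bp of it, and it was matched in a replicate when a summit among the replicate's own 9459 strongest lay within 100 bp. Depth is not given in the lists, and error is therefore given from the 3 replicates alone. With 1 group there was no contrast to test, and the counts over genes and over summits stand beside the same share of all protein-coding genes or all IDR summits.

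Of the 10 genes, 6 had an IDR promoter summit (60%), namely Trl, Cp190, M1BP, BEAF-32, Dref and mod(mdg4), beside 22.5% of protein-coding genes. Because earlier results were known when the genes were chosen, this share and those below are descriptive and cannot show enrichment. In the pooled list pita joined them, beside 34.1% of protein-coding genes. An IDR summit lay in the gene or within 5 kb of it for 9 genes, all but Clamp, beside 53.7% of protein-coding genes. For su(Hw), CTCF and pita these summits were all farther than 500 bp from the gene's own TSSs. The genes had a median length of 3779.5 bp, beside 2166 bp for protein-coding genes, so their windows gave more room for a summit. Per kb the windows held 0.119 IDR summits, beside 0.0707 over all 6 arms. The arms include all sequence between genes, whereas every window holds a gene and its TSSs, so these densities are not like measures. The density over the windows of all protein-coding genes is not given here.

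Among the 9459 strongest peaks of each replicate, promoter summits were found for 9 of the genes in replicate 1, for 8 in replicate 2 and for 5 in replicate 3, a mean of 7.33 ± 2.08 (SD, n = 3). The corresponding shares of protein-coding genes were 29.5%, 23.2% and 21.7%. Replicate 3 was thus the lowest for these genes and for all genes. The whole lists of equal length differed in the same way, with 61 summits in the windows in replicate 1, 48 in replicate 2 and 25 in replicate 3.

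**Figure D1:**
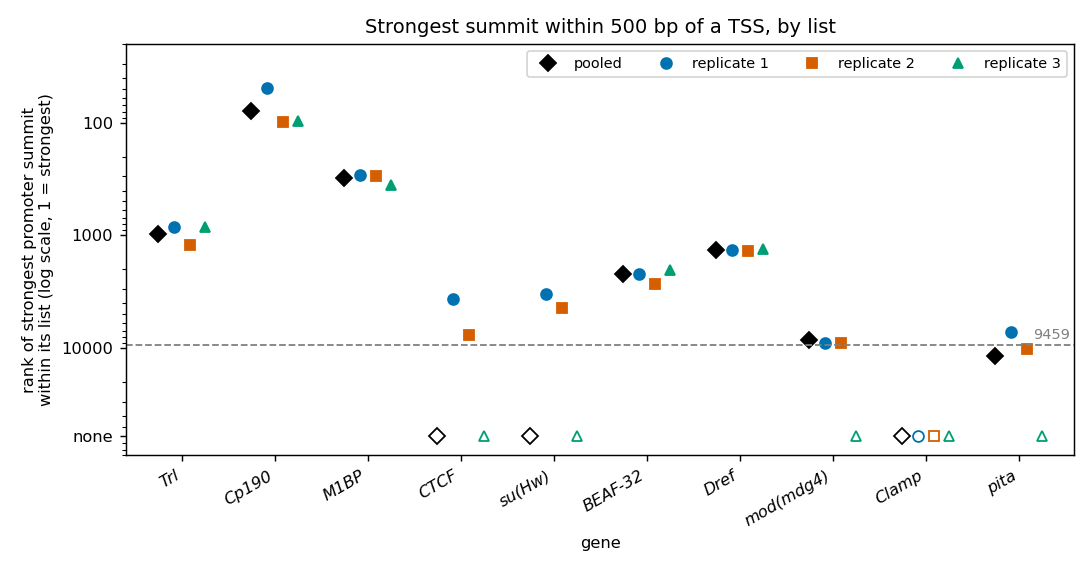
Rank of the strongest promoter summit of each gene in the pooled list and in replicates 1, 2 and 3, on a log axis with 1 as the strongest; the dashed line is rank 9459, the length of the IDR list, and open symbols mean no promoter summit. The points of Cp190, M1BP, Dref, Trl and BEAF-32 lie close together above the line, those of mod(mdg4) lie just above it without replicate 3, and CTCF, su(Hw) and pita have replicate points without an IDR summit.

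The cofactor gene Cp190 (3R, 15270432 to 15275241, minus strand) had the strongest promoter summit of the genes, at 15275377. It ranked 79 in the pooled list and 49, 99 and 96 in replicates 1, 2 and 3. All replicates placed it among their 100 strongest peaks, and their summit positions had an SD of 3.46 bp. It lay 136 bp upstream of the Cp190 TSS and 145 bp upstream of that of CG4338, which is transcribed the other way. Ordered by their strongest IDR promoter summit, Cp190 was number 64 of 3141 protein-coding genes, whose median rank was 2948. No other IDR summit lay in the Cp190 window.

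The promoter factor genes M1BP and Dref had summits of steady rank. M1BP (3R, 8729790 to 8731698, minus strand) had a single summit in each of the 5 lists, with a pooled rank of 307 and ranks of 290, 298 and 361 in the replicates. The pooled summit lay 212 bp upstream of M1BP and 181 bp upstream of its divergent neighbour CG8202. Summit position varied more here than at Cp190 (SD 49.0 bp), along the AT-rich run shown above. Dref (2L, 9964147 to 9967229, minus strand) had a pooled rank of 1362 and ranks of 1350, 1390 and 1316. Its summit lay 33 bp upstream of Dref and 51 bp upstream of RpL13, a ribosomal protein gene. A weaker Dref window summit (9963957, rank 5442) lay 8 bp upstream of CG5850, past the 3' end of Dref. M1BP was number 260 and Dref number 884 in the order of promoter genes.

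Trl (3L, 14747929 to 14761049, minus strand), the gene of the GAGA factor, had 5 IDR summits in its window. In the gene and 5 kb around it, 6.96% of protein-coding genes had 5 or more. Those genes had a median length of 14190 bp, close to the 13121 bp of Trl. The 5 Trl summits lay within 4281 bp, a span that was not compared with other genes. The strongest, at 14759519, ranked 7 in the pooled list and 9, 5 and 7 in replicates 1, 2 and 3, so that its rank was high in every replicate. It was intronic, 1530 bp downstream of the farthest upstream TSS and 1557 bp upstream of the TSS at 14757962, from which most annotated Trl transcripts start.

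The other Trl summits were weaker by rank. An intronic summit at 14756128 ranked 512 in the pooled list and 558, 516 and 495 in the replicates. A summit at 14757208, 128 bp downstream of a TSS, ranked 980 (847, 1209 and 845), and its position had an SD of only 0.577 bp. The summit at 14758304 ranked 4409 (6117, 4410 and 4722) and lay 342 bp upstream of the main TSS, which the short gene CG42507 shares. The fifth, at 14760409, ranked 2073 (2238, 2358 and 1766) and shared its called interval with the strongest. All 5 were matched in all 3 replicates, and 3 of them were intronic. Measured at promoters alone, Trl was number 680 of the 3141 genes, since its strongest peak lies outside the promoter class.

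**Figure D2:**
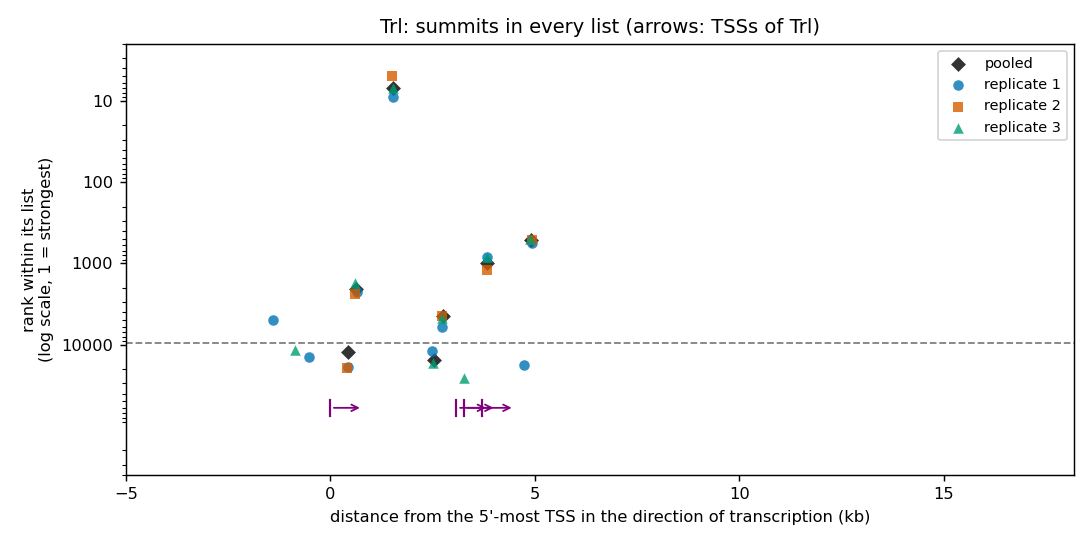
Summits in and around Trl in the pooled list and each replicate, by distance from the farthest upstream TSS in the direction of transcription (kb) and by rank on a log axis with 1 as the strongest; arrows mark Trl TSSs and the dashed line is rank 9459. At 5 places the 4 lists fall together above the line, and the strongest, ranks 5 to 9, sits between the upstream TSS and the other TSSs.

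The cofactor gene mod(mdg4) (3R, 21350846 to 21377401, minus strand) had 4 IDR summits in its window, a number reached by 11.8% of protein-coding genes. Those genes had a median length of 7354 bp, whereas mod(mdg4) is 26556 bp long, so its window gave more room for summits. The gene's own TSS carried the weakest of the 4. That summit, at 21377367 and 34 bp downstream of the TSS, ranked 8579 of 9459 in the pooled list, 9103 in replicate 1 and 9047 in replicate 2, and was absent from the replicate 3 list. It was number 2982 of the 3141 promoter genes.

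A far stronger summit lay inside the gene at 21365442, with a pooled rank of 280 and ranks of 177, 405 and 258 in replicates 1, 2 and 3. The annotation holds 23 genes named pre-mod(mdg4), which are precursors of the 3' exons that are trans-spliced to the common 5' exons of mod(mdg4). The summit lay within 500 bp of the TSSs of 10 of them, 3 on the minus strand and 7 on the plus strand. It was 152 bp upstream of 3 minus strand precursors, C, E and AB, and 167 bp upstream of 7 plus strand precursors, and it fell 46 bp downstream of another start of precursor E. The 3 replicates placed it with an SD of 10.4 bp. These were the only precursors with an IDR promoter summit. In replicate 1 a further summit (21373591, rank 4112) lay 16 bp upstream of the precursors AA, N and O.

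The other mod(mdg4) window summits belonged to neighbours. One at 21378757, with a pooled rank of 546 and replicate ranks of 554, 485 and 726, lay 220 bp upstream of tin, the gene of the mesoderm and heart factor tinman, and 1356 bp upstream of mod(mdg4). The other ranked 5088 and lay in an intron of aus.

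**Figure D3:**
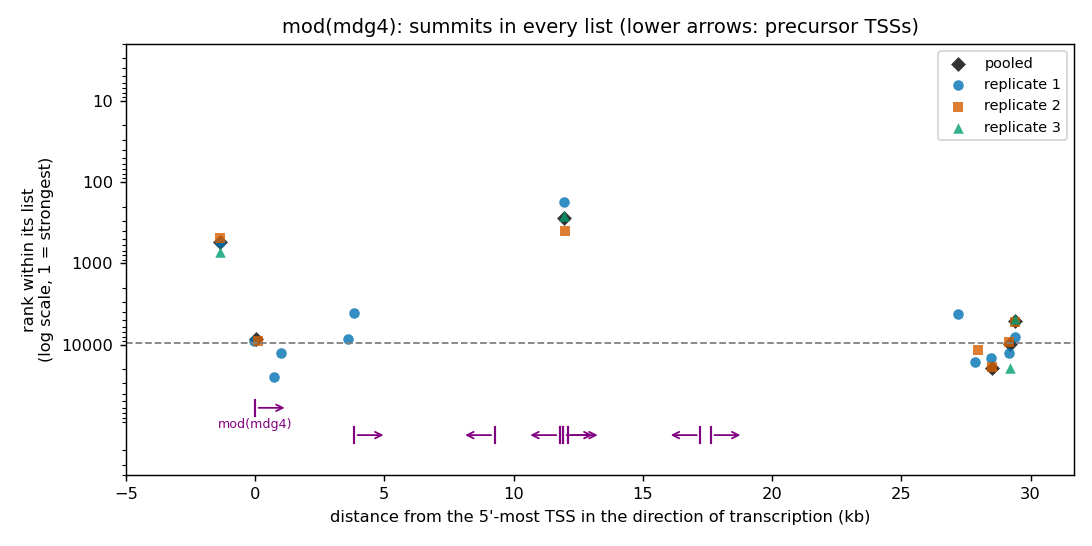
Summits in and around mod(mdg4) in the pooled list and each replicate, by distance from the mod(mdg4) TSS in the direction of transcription (kb) and by rank on a log axis with 1 as the strongest; the upper arrow marks the mod(mdg4) TSS, the lower arrows precursor TSSs, and the dashed line is rank 9459. The strongest summit, ranks 177 to 405, lies 11959 bp inside the gene at the start of precursor genes, while the points at the gene's own TSS lie at about the dashed line.

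BEAF-32 (2R, 14770469 to 14772630, plus strand), whose protein binds CGATA clusters at domain borders, had 2 IDR promoter summits. The stronger, at 14770387 and 82 bp upstream of a TSS, ranked 2221 in the pooled list and 2198, 2718 and 2030 in the replicates. The weaker, at 14771265 and 36 bp upstream of a downstream TSS, ranked 5807 (6164, 6479 and 7158). Both were matched in every replicate. The stronger was also 117 bp upstream of the antisense gene asRNA:CR42254, and the weaker was 30 bp downstream of another TSS of that antisense gene. BEAF-32 was number 1287 of the 3141 promoter genes.

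The insulator genes su(Hw), CTCF and pita had promoter summits in replicates 1 and 2 without one in the IDR list. At su(Hw) (3R, 14304455 to 14308589, minus strand) the summits of replicate 1 (rank 3286) and replicate 2 (rank 4429) lay 350 and 349 bp upstream of its TSS and 150 and 151 bp upstream of Polr2I, which encodes a subunit of RNA polymerase II. They were 1 bp apart, yet replicate 3 had no summit anywhere in the su(Hw) window, and the nearest pooled summit was 8811 bp away. Of 6899 strong replicate 1 summits matched in replicate 2, 192 (2.78%) likewise had no pooled summit within 500 bp, and 156 of the 192 also had no replicate 3 summit within that distance. The IDR summit in the su(Hw) window (14300128, pooled rank 3140) lay in an intron of red and was matched in replicates 1 and 2 only (ranks 3642 and 2801).

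At CTCF (3L, 7353578 to 7356713, minus strand) the promoter summit of replicate 1 (rank 3656) lay 119 bp downstream of the TSS and that of replicate 2 (rank 7635) lay 10 bp upstream. They were too far apart to match, and neither the pooled list nor replicate 3 had a promoter summit. The 3 IDR summits of the CTCF window lay at or in neighbours. The strongest, at 7360429 with a pooled rank of 3470 and replicate ranks of 2899, 5759 and 2454, was 132 bp upstream of Sec63, which encodes a protein of endoplasmic reticulum translocation, and 166 bp upstream of pst. The others were intronic, with pooled ranks of 5117 and 7401.

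At pita (2R, 23548967 to 23554712, minus strand) the upstream TSS had a summit 25 bp upstream in replicate 1 (rank 7216) and 158 bp upstream in replicate 2 (rank 10157). The other annotated TSS, at 23551551, had weaker summits around it. The pooled list had a summit of rank 11681 there, 205 bp downstream of that TSS and 33 bp downstream of a TSS of the caspase gene Dcp-1, and another of rank 13837, 6 bp downstream of the pita TSS. Both ranked below the IDR list. Replicate 1 (rank 12731) and replicate 2 (rank 12364) had summits between these, at 23551436 and 23551433, and replicate 3 had none there. The IDR summit of the pita window (23548114, pooled rank 2569, replicate ranks 1784, 3527 and 2286) lay 125 bp upstream of levy, a gene of a cytochrome c oxidase subunit. It was also 37 bp downstream of a TSS of wmd and 126 bp upstream of another wmd TSS. Clamp (2L, 22165720 to 22169143, minus strand) had no summit in its window in the IDR list, the pooled list or replicates 2 and 3. In replicate 1 a single summit of rank 19957 lay 4389 bp upstream of its TSS. The IDR summit nearest to that TSS was 23576 bp away.

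**Figure D4:**
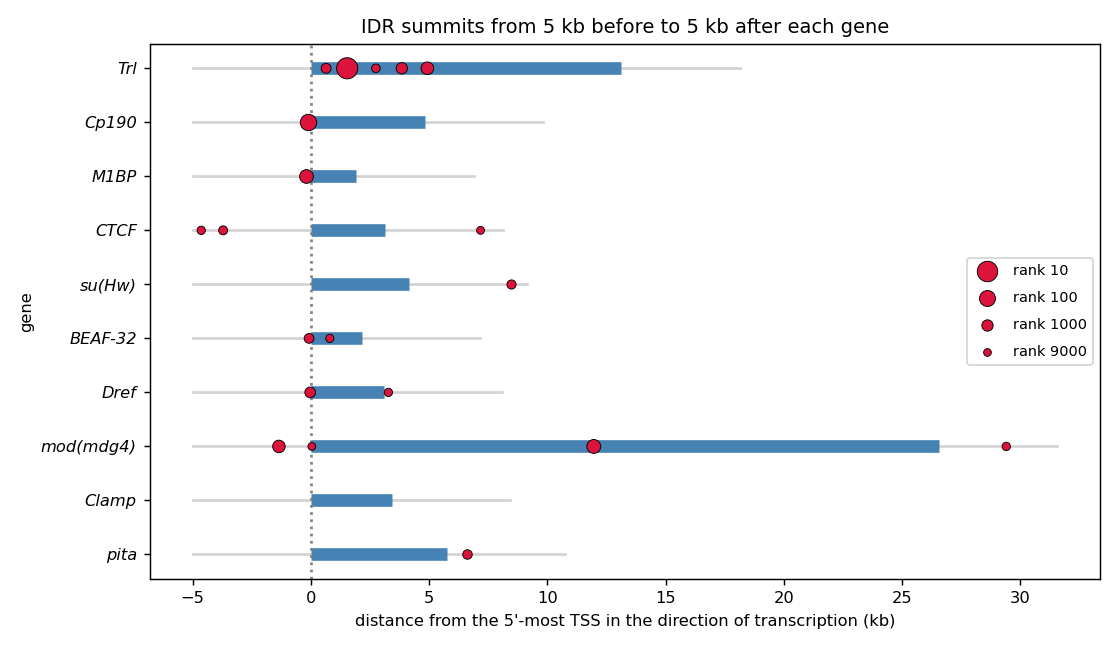
Each of the 20 IDR summits in the windows of the genes, by distance from the gene's farthest upstream TSS in the direction of transcription (kb) and by gene; blue bars are the genes, grey lines the 5 kb to either side, and larger points stand for stronger ranks. Trl has 5 summits, mod(mdg4) has 4, and Clamp has none.

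The 20 IDR summits of the windows had a median rank of 2395, with 6 (30%) in the top 945 of the 9459. Of these summits, 17 (85%) were matched in all 3 replicates, beside 62% of all IDR summits. The other 3, in the windows of CTCF and su(Hw) and at the mod(mdg4) TSS, were matched in replicates 1 and 2 and lacked replicate 3. Over the 17, summit positions had a median SD of 9.81 bp, beside 18.1 bp over the 5865 IDR summits matched in all replicates. A match needed a summit among a replicate's 9459 strongest, so it depended on rank. Neither comparison was made at equal rank, and the windows of Trl and mod(mdg4) gave 5 and 4 of the 20 summits. These figures are therefore not a trait of the genes.

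In promoters there were 13 of the 20 (65%), beside 34.3% of all IDR summits. Every window was drawn around a gene with its TSSs, so a larger promoter share is partly built in and is not a trait of these genes. Of the 13, 8 lay at a TSS of the gene itself, and 5 lay at TSSs of other genes only. Of the 8, 6 were upstream of the gene's nearest TSS. Among these 6, the summits at 14758304 in Trl and 14771265 in BEAF-32 were also downstream of another TSS of the same gene. Introns held the other 7 (35%), of which 3 were in Trl and 4 in neighbours, beside 45.2% of all IDR summits. None fell in intergenic sequence, beside 17.5% of all, in windows that are built around genes, and none in coding sequence, which held only 0.211% of all. For 4 of the 6 genes with an IDR promoter summit, Cp190, M1BP, Dref and BEAF-32, the strongest such summit was also within 500 bp of another gene's TSS, beside 49.3% of the 3141 genes. There a peak cannot be assigned to either gene alone.

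The summits were poorer in G and C than the DNA beside them. Their mean GC content within 50 bp was 33.0%, and it was 44.6% in windows of equal size centred 300 bp to either side, a difference of -11.6 percentage points that was close to the -11.4 of all IDR summits. It was lower at 16 of the 20 (80%), beside 79.9% of all IDR summits. The strongest peaks of replicates 1, 2 and 3 in the same gene windows gave -10.1, -11.6 and -15.7 points (-12.5 ± 2.92, SD, n = 3). Among promoter summits, M1BP was lowest at 6.93% beside flanks of 42.1%, and Cp190 had 20.8% beside 48.5%. Dref and the mod(mdg4) TSS went the other way, with 49.5% beside 39.6% and 48.5% beside 39.1%.

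**Figure D5:**
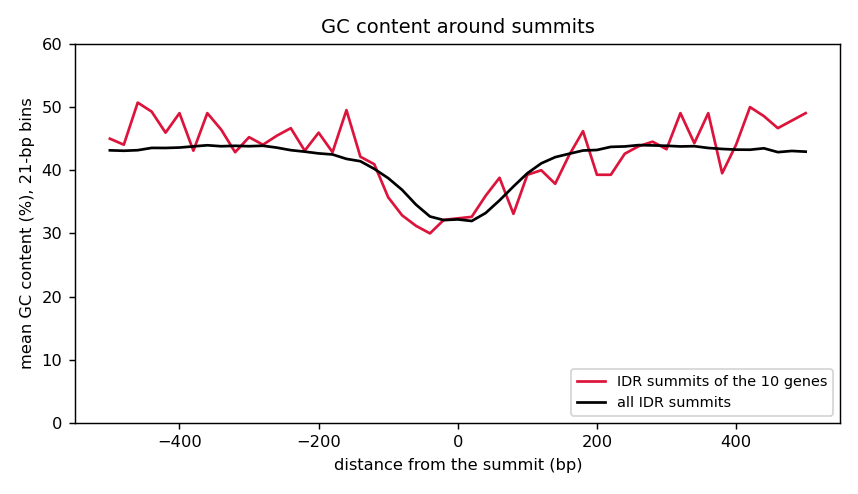
Mean GC content (%) by distance from the summit (bp) for the 20 window summits and for all 9459 IDR summits, in bins of 21 bp. Both lines dip at the summit.

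The binding words of these proteins were few within 50 bp of the summits, as they were at all IDR summits. Within 50 bp, GAGAG was present at 1 of the 20, in the su(Hw) window, beside 8.77% of all IDR summits, and at none of the 5 Trl summits in that narrow span. CGATA was present at 2, in the CTCF window and at Dref, beside 12.1%. GGTCACAC (0.497% of all), TATCGATA (0.687%), GCATACTT (0.772%) and AGGNGGC (1.58%) were at none. With shares this low, their absence from 20 summits says little. TATAAA was found at 5 (25%, beside 25.1% of all IDR summits), AAAAAA at 8 (40%, beside 27.8%) and GGGG at 3 (15%, beside 15.6%).

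With the span widened to 250 bp, a choice made after the narrower counts were seen, TATCGATA, the word of Dref, was present at 5 of the 20 summits (25%), beside 3.59% of all IDR summits. It was singled out of the 9 words after their values were seen. All 5 were promoter summits, 5 of 13 (38.5%), beside 9.03% of the 3246 promoter IDR summits. They were those of Cp190, mod(mdg4), BEAF-32, Sec63 in the CTCF window and levy in the pita window. Both Dref window summits lacked it. Of these, 3 are printed here in capitals within 30 bases of the minus strand, since they lay outside the runs given above, from 84.5 to 135.5 bp from the summit. The Cp190 word was centred 0.5 bp from the gene's TSS, and that of mod(mdg4) 50.5 bp upstream of its TSS.
Cp190 word (chr3R:15275238-15275245): tatcgcatggcTATCGATAgctgccgagcg
mod(mdg4) word (chr3R:21377448-21377455): atattttaagcTATCGATAtattgtcactt
Sec63 word, CTCF window (chr3L:7360520-7360527): gattgcacggcTATCGATAggcgggaggca

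The other words in the wider span were as follows. GAGAG, the word of the GAGA factor, was present at 4 of the 5 Trl summits, the strongest among them and all but 14756128. Over the 20 summits it was present at 8 (40%), beside 51.7% of all IDR summits, and at 3 of the 13 in promoters (23.1%), beside 53.3% of promoter IDR summits. CGATA was present at 13 (65%, beside 47.7%), a count that includes the 5 with TATCGATA. GGTCACAC was present at 1 (5%, beside 3.32%). TATAAA was present at 12 (60%, beside 58.6%), AAAAAA at 18 (90%, beside 72.7%) and GGGG at 15 (75%, beside 74.8%). GCATACTT and AGGNGGC were at none of the 20, beside 2.43% and 15.3%.

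A further 24 genes of insulator, cohesin and promoter factors, also chosen with earlier results known, were read in the same way. Of these, 8 (33.3%) had an IDR promoter summit and 13 had an IDR summit in their window, beside the 22.5% and 53.7% of protein-coding genes given above. The strongest was at Chro, which encodes the chromodomain protein Chromator, a partner of insulator proteins at domain borders. It ranked 27 in the pooled list and 30, 29 and 21 in the replicates, 75 bp downstream of a TSS, and so stood above the Cp190 promoter summit in every list. The next were at lola, shep and pzg, with pooled ranks of 366, 597 and 2809. The pzg summit had ranks of 2237 and 4900 in replicates 1 and 2 and none in replicate 3. The genes without an IDR summit in their windows were Ibf1, Ibf2, Elba1, Elba2, insv, ZIPIC, dwg, HIPP1, SMC1, Topors and vtd. Many protein-coding genes likewise had none, so this lack is not a trait of insulator genes.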

How the data were processed

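The members and gene lists were chosen with earlier results of these data known. Per the labels, sonication gave fragments between 200 and 800 bp, and an anti-GFP antibody was used. The deposited lists are narrowPeak files on dm6. Their signal value is the authors' own, served only for ranks within each list, and is taken to scale with depth. The deposited −log10 q-value reaches a common maximum within a list and was not used. Names and versions of the aligner and the caller were not given in the sources used here. No control library was analysed here, so signal that a control would share was not separated from binding. Read depth per sample is unknown.

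Summits are the deposited offsets from peak starts, in 1-based coordinates. Genes came from Ensembl release 115 (BDGP 6.54) and sequence from RefSeq (release 6), the same assembly. Counting was done with Python 3.11.15, pandas 2.3.3 and numpy 2.4.6, and the code was checked on simulated peaks. Promoters lay within 500 bp of a TSS, replicate matches within 100 bp, words within 50 bp. The span of 250 bp for words was added after the data were seen. Values from replicates used each replicate's 9459 strongest peaks. No test was run, since there was 1 group. All 10 members were named, with the 4 genes of highest signal in the list of 24. Neighbouring genes, the precursor genes and the genes without summits were named after their values were seen. Alternatives changed the promoter distance, the match distance, the window, the list and the replicate left out.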

Additional observations from a re-analysis of the deposited data

How the results depend on the processing

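Counts and summaries were recomputed under 39 alternatives. Of these, 38 stayed within 1.5 times the main count or within the replicate spread, and none reversed. Without the IDR peaks below the median signal, the GC difference between summits and flanks moved to -15.9 percentage points from -11.6. Of 35 alternatives for the ranks of single genes, 10 moved by more than the replicate spread. These alternatives were the replicate ranks themselves and means of the ranks that remained, so they are not independent of that spread. At mod(mdg4) the spread came from replicates 1 and 2 only. Each replicate was left out of the matching in turn, while the IDR list, called on all replicates, stayed the same. IDR summits matched in the replicates that remained gave 5 to 6 genes with a promoter summit and 8 to 9 genes with a window summit. These counts could not exceed those of the whole IDR list. In the windows, 17 to 20 IDR summits were matched in this way. The mean number of genes per replicate with a promoter summit was 6.5 to 8.5. No paired analysis was possible because there was 1 group and no comparison between groups. Depth is unknown, so a missing summit, as at Clamp or su(Hw) in replicate 3, says only that none was called there.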

Other observations

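Several summits in the gene windows were called among the strongest of replicate 1 and lay at neighbouring genes without an IDR summit. In the Cp190 window, replicate 1 had a summit of rank 5682 at 67 bp upstream of ATPsynO, which encodes a subunit of the mitochondrial ATP synthase. Another, of rank 8113, lay 29 bp upstream of MRG15, which encodes a chromodomain protein, and 82 bp upstream of Tm1. Near this second place, summits of lower rank were called in the pooled list (10841), replicate 2 (11627) and replicate 3 (24851). In the Trl window, a replicate 1 summit of rank 4936 lay 420 bp downstream of the TSS of Mgat4a.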
